A study of Amaranthus powellii with 13 samples.

Results

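Of 20245 gene models with at least 1 read in the leaf libraries of 12 green pigweed plants, 75 were already expressed in every untreated plant and stood at least 3 times higher in every plant sprayed with MCPA. These 75 gene models, 0.370% of those with a read, are the subject here. They were chosen by their measured values: at least 2 CPM in each of the 6 untreated plants, an untreated mean under 1000 CPM, and a lowest treated value at least 3 times the highest untreated value. CPM are read counts scaled to a common library size, here by the trimmed mean of M values (TMM). The rise with MCPA is therefore how the members were found and is given as a description, with no test. The comparison of the populations, which the rule did not ask for in either direction, was tested.

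MCPA is a synthetic auxin, a herbicide that acts as an overdose of the plant hormone auxin. Auxin binds F-box receptors of the TIR1 and AFB family, which then mark Aux/IAA repressor proteins for degradation, and this frees auxin response factors to switch on their target genes. Early targets in other plants include Aux/IAA genes themselves, GH3 genes that conjugate auxin to amino acids, SAUR genes tied to cell expansion, and ACC synthase genes that start ethylene synthesis. The identifiers come with no gene names in the files, so which of the 75 members belong to these families is not known here, the gene lists prepared for the auxin, ethylene and abscisic acid pathways could not be counted, and the leaf label could not be set against leaf markers.

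The plants were green pigweed (Amaranthus powellii) from 2 populations. Population 501 is MCPA-resistant and was grown from an open-pollinated seed lot of plants that had survived repeated MCPA selection, and population 511 is susceptible and came from an untreated field population. RT and ST were plants of 501 and 511 sprayed with MCPA at 1225 g a.e. (acid equivalent) per ha, and RU and SU were plants of 501 and 511 without MCPA. The 4th leaf was cut 6 h after application, and the study chose 3 plants per group as the most representative after survival had been scored. Plants are named by the numbers in their labels, which pair no plants across groups. The populations were collected at different places and differ in more than resistance, so population and resistance cannot be told apart.

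Total counts were 22629698 to 29999982 per library, and the lowest count of any member was 53 in an untreated library and 341 in a treated one. Plants ST S13 and SU S116 stood apart, with a correlation in log2 CPM to the nearest library of 0.884 and 0.914, against 0.950 or more for the other 10 libraries. Results that rest on them are given with and without them. In whole leaves, more cells of a type and more RNA per cell cannot be told apart.

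The members rose by a median of 10.9 times in the mean of 6 treated over 6 untreated plants, with a range of 3.86 to 158 times. The mean rise was at least 8 times in 49 members, at least 16 times in 18 and at least 32 times in 5. The more cautious ratio that the rule reads, the lowest treated over the highest untreated plant, had a median of 4.27, and it was at least 5 in 27 members and at least 10 in 9. Untreated means were low in most members, with a median of 13.1 CPM, and 31 members lay under 10 CPM and 63 under 50 CPM. Treated means had a median of 156 CPM and reached 1000 CPM or more in 13 members. Only 15 gene models met the mirrored condition, with the same limits on the untreated level and each untreated plant at least 3 times above each treated one.

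By the study's limits (adjusted p under 0.05 and log2 fold change above 2 or below -2, here from edgeR's quasi-likelihood test), 74 of 75 members were higher in RT than in RU, where 3.86% of the 16304 gene models tested were. In ST against SU the count was 73 members, with 3.45% of all gene models, and in both contrasts 73 members, with 2.48% of all. The rule used these contrasts, so nothing is read from the counts. The median log2 fold change of the members was 3.20 in the resistant contrast (RT vs RU) and 3.31 in the susceptible contrast (ST vs SU), and over all gene models it was -0.01 and 0.02. A further 331 gene models were called higher in both contrasts and are not members. Of these, 267 fell short of 2 CPM in an untreated plant and 64 met that minimum but not the 3 times gap.

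Together the members took up a larger part of the leaf mRNA after MCPA. Their summed CPM after TMM, written as a percentage and called the scaled sum, is not a true share. It was 3.95%, 3.94% and 3.39% in RT S11, S14 and S110 and 3.33%, 3.64% and 4.30% in ST S13, S16 and S112. In the untreated plants the scaled sum was 0.3295%, 0.2981% and 0.3179% in RU S13, S18 and S118 and 0.2687%, 0.2979% and 0.2640% in SU S12, S14 and S116. As a mean, the scaled sum was 3.76% ± 0.32 in RT, 3.76% ± 0.50 in ST, 0.315% ± 0.016 in RU and 0.277% ± 0.018 in SU (SD, n = 3 each). The scaled sums of RT and ST overlapped, while RU lay just above SU, with RU S18 and SU S14 nearly level. The true shares, of each library's counts before TMM scaling, were 3.57% to 3.80% in RT and 4.29% to 4.42% in ST, which lay apart. They were 0.274% to 0.284% in RU and 0.257% to 0.287% in SU, which overlapped. The mean true shares were 3.70% in RT, 4.37% in ST, 0.278% in RU and 0.271% in SU. The 5 members with the highest treated means held 38.8% of the members' treated CPM.

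**Figure D1:**
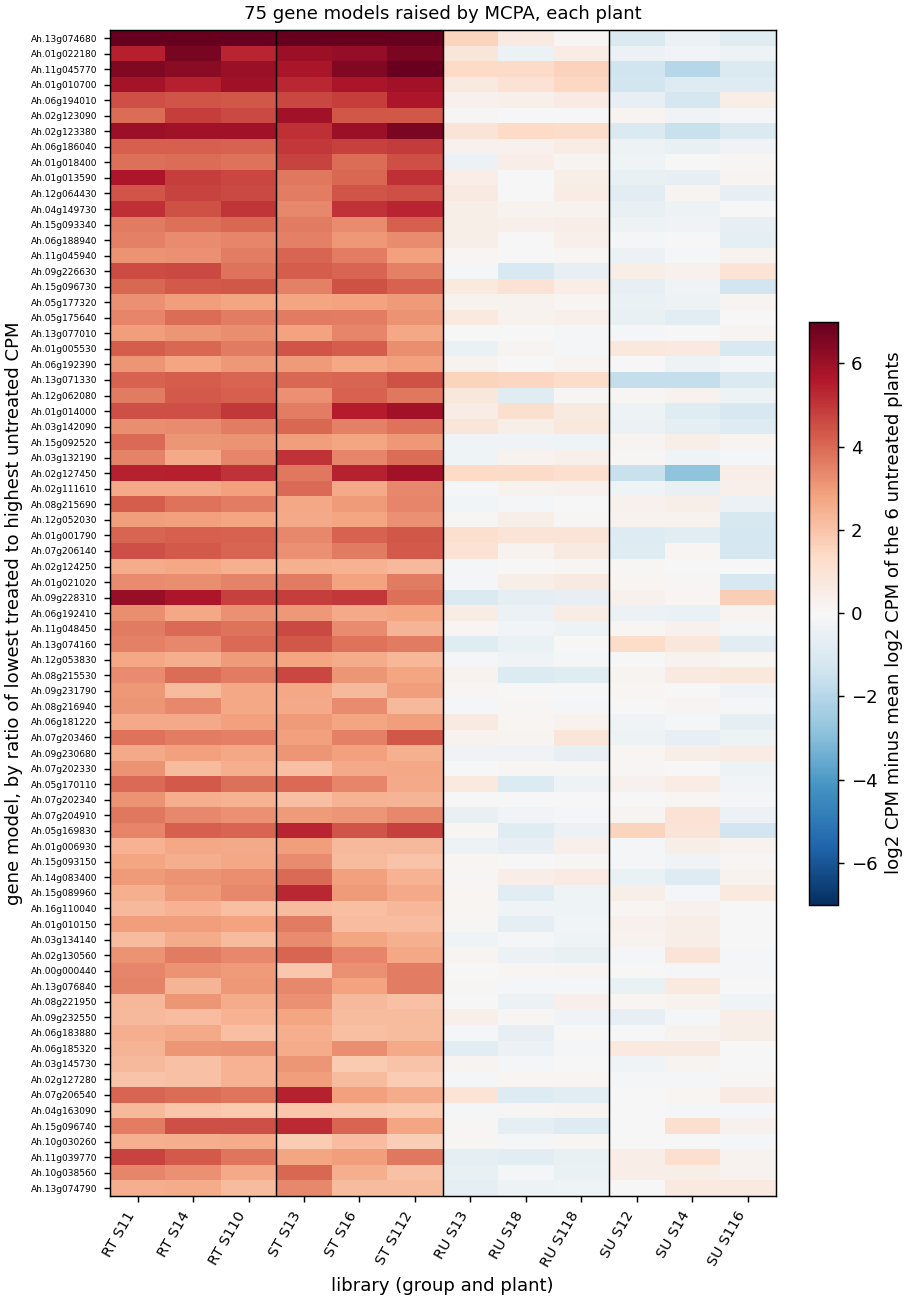
Level of each of the 75 members (rows, ordered by the ratio of lowest treated to highest untreated CPM) in each of the 12 plants (columns, in the order RT, ST, RU, SU), as log2 CPM minus the mean log2 CPM of the 6 untreated plants, red for higher and blue for lower. All 6 treated columns are red for every member, as the rule requires. Some rows have RU pale red where SU is pale blue, and others have the reverse. Every RU plant was above every SU plant in 18 members and below in 10.

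Ah.13g074680 had the widest gap between treated and untreated plants. It had 819.7, 1288 and 975 CPM in RT and 1102, 1479 and 1264 CPM in ST, against 17.5, 9.30 and 6.26 CPM in RU and 2.93, 4.43 and 3.34 CPM in SU. Its lowest treated plant stood 46.8 times above its highest untreated plant, and every RU plant was above every SU plant. The mean rise was 158 times.

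Ah.01g022180 followed, with 1104, 2470.0 and 986 CPM in RT and 1599, 1771 and 2413 CPM in ST, against 45.3, 18.6 and 35.9 CPM in RU and 19.1, 21.6 and 19.3 CPM in SU. The ratio of lowest treated to highest untreated was 21.8, and the populations overlapped with and without MCPA. Ah.11g045770 and Ah.01g010700 came next at 17.0 and 14.5, and their values are given with the population comparison, because they differed there.

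Ah.06g194010 had 184, 171 and 166 CPM in RT and 207, 229 and 412 CPM in ST, against 9.85, 10.3 and 12.2 CPM in RU and 5.44, 3.53 and 11.3 CPM in SU. All ST plants lay above all RT plants, but the treated contrast did not pass (log2 fold change -0.70, edgeR adjusted p = 0.453). Ah.02g123090 was the member with the lowest untreated mean, 2.86 CPM. It had 43.5, 82.8 and 68.8 CPM in RT and 168, 58.5 and 59.0 CPM in ST, against 3.07, 2.83 and 2.93 CPM in RU and 3.23, 2.40 and 2.68 CPM in SU. Its untreated plants lay close together, and its treated plants spread more widely, with ST S13 the highest.

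**Figure D2:**
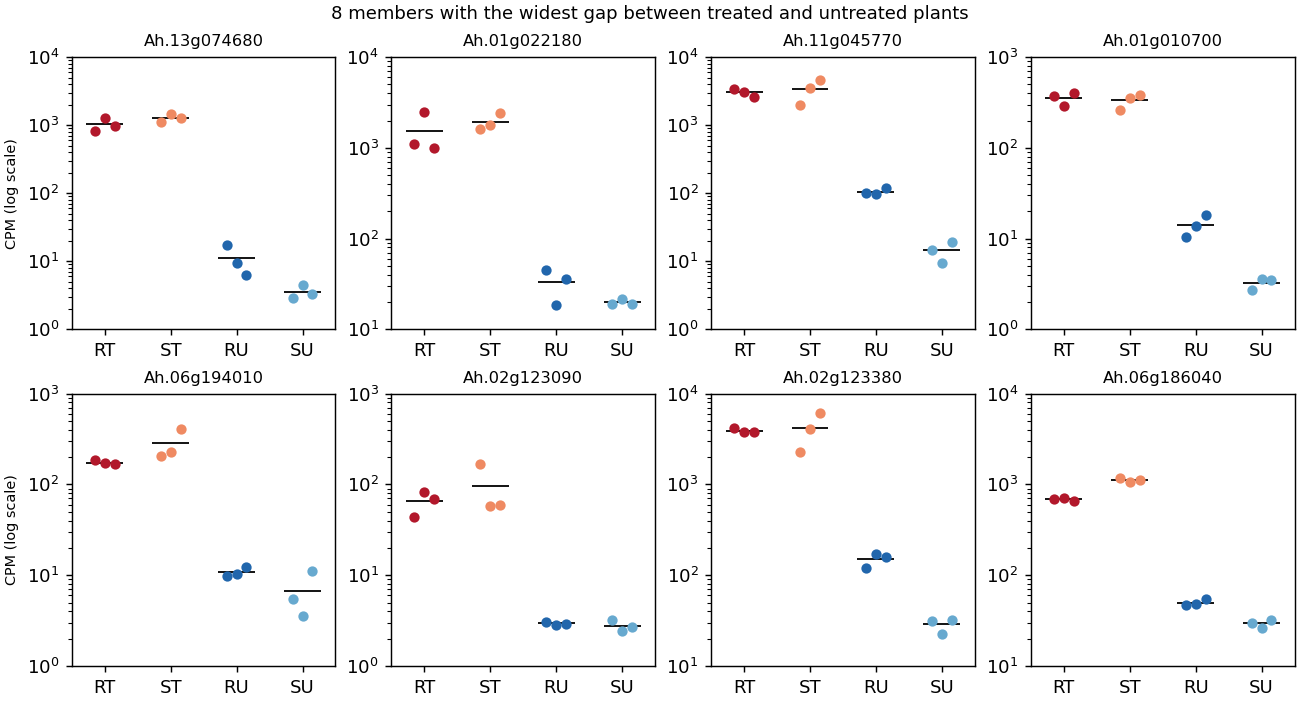
CPM on a log scale in each plant (points) with the group mean (line) for the 8 members with the highest ratio of lowest treated to highest untreated CPM, from 46.8 for Ah.13g074680 to 12.1 for Ah.06g186040. In each panel the 6 treated plants (RT, ST) lie at least 12.1 times above the untreated ones (RU, SU), and every RU plant lies above every SU plant in 5 of the panels, farthest in Ah.11g045770, Ah.02g123380 and Ah.01g010700.

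The 4 members with the highest treated means were Ah.02g123380 (4036 CPM), Ah.03g134140 (3275 CPM), Ah.11g045770 (3188 CPM) and Ah.01g001790 (2192 CPM). CPM is not scaled to gene length, so these values rank the members' part of the reads and not transcript number. Ah.03g134140 was also the member with the highest untreated mean, 529 CPM. It had 2413, 3199 and 2454 CPM in RT and 5179, 3508 and 2898 CPM in ST, against 428, 478 and 422 CPM in RU and 620.4, 712 and 514 CPM in SU. Each untreated plant of 511 lay above each untreated plant of 501, the reverse of the order in the other 3 of these members, and the untreated contrast did not pass (log2 fold change -0.48, edgeR adjusted p = 0.568).

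The limits of the rule cut through a continuous range of values. The members just inside the 3 times limit were Ah.10g030260 at 3.06, Ah.11g039770 at 3.01, and Ah.10g038560 and Ah.13g074790 at 3.00, and the gene models just outside were Ah.03g139730 and Ah.11g043840 at 2.97 and Ah.14g087800 and Ah.00g000820 at 2.95. At the untreated minimum, Ah.12g064430 and Ah.10g038560 were inside with lowest untreated values of 2.29 and 2.14 CPM. Outside were Ah.09g225050 and Ah.08g213850 with 1.902 and 1.78 CPM, although their ratios were 17.8 and 12.2. In all, 139 gene models met the 3 times limit but not the minimum, and none was left out by the upper limit of 1000 CPM.

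Without MCPA some members already stood at different levels in the populations, and the 6 that passed the adjusted threshold in edgeR with all 12 plants were higher in the resistant one. This untreated contrast (RU vs SU) asks whether the resistant population differed before any herbicide, and the rule sets no direction for it, although it reads the lowest and highest untreated plant of both populations. With the fold limit, 4 members were higher in RU, where 0.104% of all gene models tested were, and 0 were lower, where 0.0368% of all were. Without the fold limit, 6 members were higher (8% of the members, 0.135% of all) and 0 lower (0.11% of all). That count of 6 became 2 without SU S12, 3 without RU S13, SU S14 or SU S116, and 11 without ST S13 and SU S116 together, of which 10 were higher and 1 lower (0.951% of all in either direction). At an unadjusted p under 0.05, 26 members passed (34.7%, against 9.96% of all), and all 3 RU plants lay above all 3 SU plants in 18 members (24%, against 11.6% of all) and below them in 10 (13.3%, against 11.6% of all). DESeq2 called the same 4 with the fold limit (0.816% of all gene models in either direction) and 17 members without it (22.7%, against 2.45% of all), of which 13 were higher in RU.

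**Figure D3:**
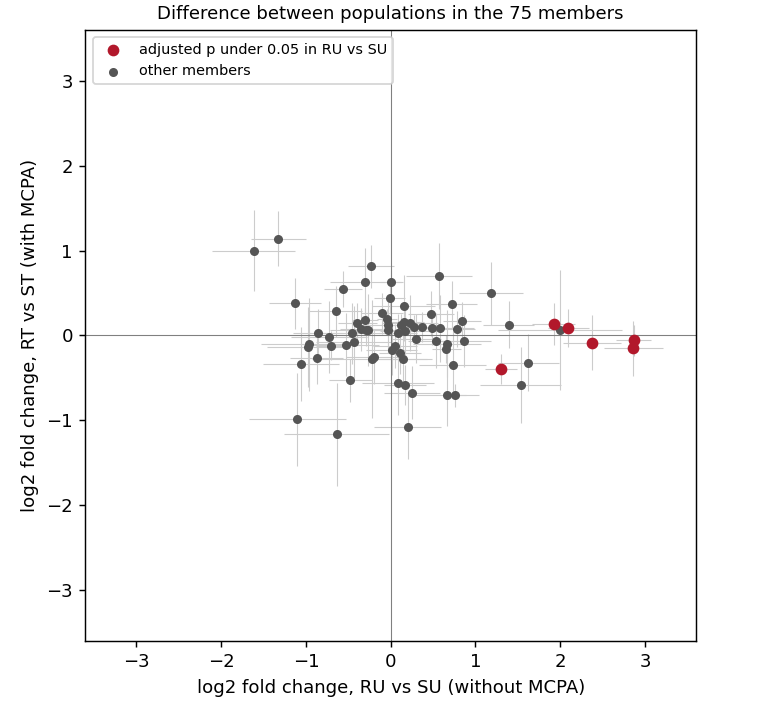
Log2 fold change of each member in RU vs SU (horizontal) and in RT vs ST (vertical), with standard errors from edgeR as bars, on equal axes. The 6 members with an adjusted p under 0.05 in RU vs SU (red) lie at 1.30 to 2.87 on the horizontal axis and between -0.39 and 0.14 on the vertical one.

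Ah.13g071330 showed the clearest difference between untreated plants. It had 43.8, 42.1 and 35.8 CPM in RU against 4.67, 4.61 and 7.33 CPM in SU, and the groups lay far apart. Its log2 fold change was 2.87 ± 0.21 (SE, edgeR adjusted p = 6.67e-04), and it passed the adjusted threshold under all 16 alternatives tried, with adjusted p up to 0.0114. With MCPA it had 261, 275 and 249 CPM in RT and 238, 254 and 325 CPM in ST. These groups overlapped, and the 95% interval of the log2 fold change was -0.48 to 0.36.

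Ah.01g010700 had 10.4, 13.7 and 18.02 CPM in RU against 2.72, 3.57 and 3.52 CPM in SU. Every RU plant was above every SU plant, with a log2 fold change of 2.10 ± 0.24 (SE, edgeR adjusted p = 0.0066), and its adjusted p was under 0.05 in all 16 alternatives, up to 0.0497. Its log2 fold change fell below the limit of 2 without RU S118 (1.88) and without SU S12 (1.98), so the call with the fold limit was lost there. With MCPA it had 375, 286 and 404 CPM in RT and 261, 355 and 386 CPM in ST. These overlapped, with a 95% interval of the log2 fold change of -0.42 to 0.58.

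Ah.11g045770 had 101, 97.1 and 118.2 CPM in RU against 14.7, 9.41 and 19.3 CPM in SU, and the groups did not overlap. The log2 fold change was 2.86 ± 0.35 (SE, edgeR adjusted p = 0.0078), and the call was lost only when SU S12 was left out (adjusted p = 0.0709 with a log2 fold change of 2.87). With MCPA it had 3429, 3085 and 2560.4 CPM in RT and 2008, 3459 and 4589 CPM in ST. The spread in ST enclosed all RT plants.

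Ah.02g123380 had 119.9, 169.8 and 159 CPM in RU against 31.6, 22.3 and 32.5 CPM in SU, again without overlap. The log2 fold change was 2.37 ± 0.35 (SE, edgeR adjusted p = 0.0244). The adjusted p was above 0.05 when any 1 of RT S14, RT S110, RU S13, RU S18, RU S118, SU S12, SU S14 or SU S116 was left out, and was then at most 0.142, while the log2 fold change stayed between 2.22 and 2.51. With MCPA it had 4185, 3771 and 3801 CPM in RT and 2267, 4040.4 and 6155 CPM in ST, where ST again enclosed RT.

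The other 2 members past the adjusted threshold lay below the fold limit, and Ah.03g142090 is named although no rule chose it, after its values were seen. Ah.01g001790 had 284, 247 and 243 CPM in RU against 70.6, 78.1 and 55.2 CPM in SU, and 2236, 2366 and 2287 CPM in RT against 1335, 2261 and 2664 CPM in ST. RU and SU lay apart (log2 fold change 1.92 ± 0.26, SE, edgeR adjusted p = 0.0131), and RT and ST overlapped. Ah.03g142090 had 42.9, 31.1 and 39.1 CPM in RU against 17.6, 15.3 and 12.9 CPM in SU, also without overlap (log2 fold change 1.30 ± 0.19, SE, edgeR adjusted p = 0.0225), and 226, 238 and 284 CPM in RT and 385, 270.1 and 326 CPM in ST, which overlapped. Each of these was lost in 5 of the fits that left out 1 plant: without RU S13, RU S18, SU S12, SU S14 or SU S116 for Ah.01g001790 (adjusted p up to 0.105), and without RU S13, RU S118, SU S12, SU S14 or SU S116 for Ah.03g142090 (up to 0.118). Without ST S13 and SU S116 together, all 6 of these members passed, with adjusted p of 1.18e-04 to 0.0169.

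**Figure D4:**
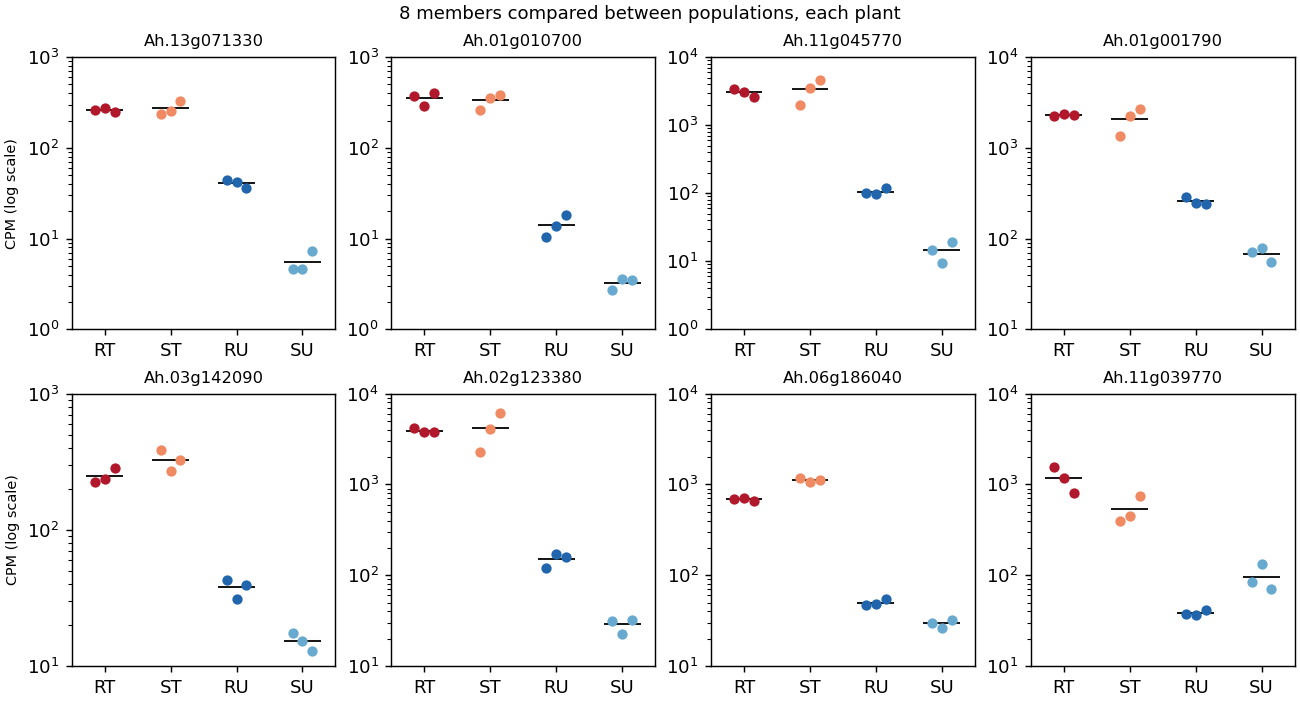
CPM on a log scale in each plant (points) with the group mean (line) for the 6 members with an adjusted p under 0.05 in RU vs SU and for Ah.06g186040 and Ah.11g039770, which did not pass that test. In the 6 members RU lies above SU while RT and ST overlap, and in Ah.11g039770 RT lies above ST while RU lies below SU.

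Over all 75 members the untreated difference was spread wide and centred near 0. The median log2 fold change in RU vs SU was 0.11, with the middle 50% of members between -0.37 and 0.66, where all gene models had a median of -0.01 and a middle 50% between -0.25 and 0.21. Scaled by library totals alone, the members' median was -0.04 and that of all gene models -0.16. Group means differed by less than 1.5 times in 41 members, RU was at least 2 times higher in 11 and at least 2 times lower in 5. Among the 9 members with a ratio of 10 or more, the fitted RU vs SU value was above 0 in 9, with a median of 0.75. It was above 0 in 14 of 18 members with a ratio of 5 to 10, in 11 of 19 with a ratio of 4 to 5 and in 9 of 29 with a ratio under 4, where the median was -0.30. The same untreated plants enter the ratio and this fold change, so the trend is a description.

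With MCPA no member passed the edgeR test between the populations. The rule sets no direction for this contrast, although it reads the lowest treated plant of both populations. Gene models with a low treated level in 1 population are thus less likely to be members, which limits the comparison with all gene models. In this treated contrast (RT vs ST), edgeR called 0 members higher and 0 lower with the fold limit, where it called 0.0613% and 0.123% of all gene models. Without the fold limit it also called 0 and 0 members, where 0.092% and 0.159% of all passed. These shares are so low that 0 of 75 does not set the members apart from all gene models. At an unadjusted p under 0.05, 8 members passed (10.7%, against 12.2% of all), and DESeq2 called 3 without the fold limit (4%, against 2.59% of all) and 0 with it (0.908% of all). All RT plants lay above all ST plants in 5 members (6.67%, against 7.49% of all) and below them in 4 (5.33%, against 7.84% of all). Group means differed by less than 1.5 times in 63 of 75 members, and the median log2 fold change was 0.03, against -0.04 over all gene models. The call of 0 with the fold limit held when any 1 plant was left out, and without ST S13 and SU S116 together. Without these 2 plants, RT lay wholly above ST in 18 of 75 members, where 13.7% of all gene models did. RT then lay wholly below ST in 6 of 75, where 14.2% of all did.

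The members closest to the threshold in RT vs ST went in opposite directions. Ah.06g186040 had 697, 708 and 663 CPM in RT against 1164, 1071 and 1131 CPM in ST, without overlap. Its log2 fold change was -0.71 ± 0.14 (SE, edgeR adjusted p = 0.0853), which passed with DESeq2 (adjusted p = 6.35e-10) and without ST S13 and SU S116 (0.0493). In untreated plants the order was the reverse, with 47.5, 47.7 and 54.7 CPM in RU against 29.8, 26.5 and 32.4 CPM in SU (log2 fold change 0.75, edgeR adjusted p = 0.0617). Ah.10g030260 had 245, 255 and 264 CPM in RT against 149, 198 and 143 CPM in ST, and 46.7, 39.6 and 46.8 CPM in RU against 44.9, 45.5 and 42.0 CPM in SU. RT lay above ST in every plant and RU overlapped SU, and the treated contrast gave 0.64 ± 0.14 on the log2 scale (SE, edgeR adjusted p = 0.120). That passed with DESeq2 (adjusted p = 4.93e-04) and without ST S16 (0.0436).

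Whether the rise with MCPA differed in size between the populations was tested as the interaction, the log2 fold change in RT vs RU minus that in ST vs SU. The rule asks for a rise of at least 3 times in both populations, so gene models raised in only 1 population are left out. It sets no upper limit on either rise. The rise was a median of 9.17 times in population 501 (3.87 to 93.2) and 9.83 times in population 511 (3.71 to 359), and it was larger in 501 in 33 members and larger in 511 in 42. Across the 75 members the rises on the log2 scale in 501 and 511 were correlated (Pearson 0.65, Spearman 0.66), as a description over genes that are not independent and were chosen on both. By edgeR 1 member had an adjusted p under 0.05 in the interaction, where 0.0123% of all gene models did, and 22 members had an unadjusted p under 0.05 (29.3%, against 6.13% of all). DESeq2 called 10 members (13.3%, against 1.04% of all), 2 of them with the larger rise in 501.

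The member called was Ah.13g071330. Its rise was 2.69 on the log2 scale in RT vs RU and 5.62 in ST vs SU, and the interaction was -2.92 ± 0.28 (SE, edgeR adjusted p = 0.0084, 95% interval -3.53 to -2.31). RT and ST had like levels, given above, while SU lay well below RU. The interaction lost its call when RT S11 or SU S12 was left out (adjusted p = 0.0667 and 0.0583), with log2 values of -2.92 and -2.81.

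The same order of the groups, with SU below RU and a larger rise in 511, was seen in further members, not all named here. In Ah.11g045770, Ah.01g010700, Ah.03g142090 and Ah.06g186040 the interactions were -3.01, -2.01, -1.70 and -1.46 and did not pass (edgeR adjusted p of 0.0779, 0.0785, 0.0779 and 0.0779). In Ah.02g123380, Ah.13g074680 and Ah.01g001790 they were -2.46, -1.95 and -1.78, with edgeR adjusted p of 0.134, 0.315 and 0.134. Without ST S13 and SU S116, edgeR called 9 members in the interaction (12%, against 0.311% of all), all with the larger rise in 511, and without ST S13 alone it called 8 (10.7%, against 0.255% of all). The share of all gene models called thus also rose in these fits. Among them, Ah.11g045770 then had -3.54 (adjusted p = 0.0053) and Ah.06g186040 -1.51 (adjusted p = 0.0108).

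**Figure D5:**
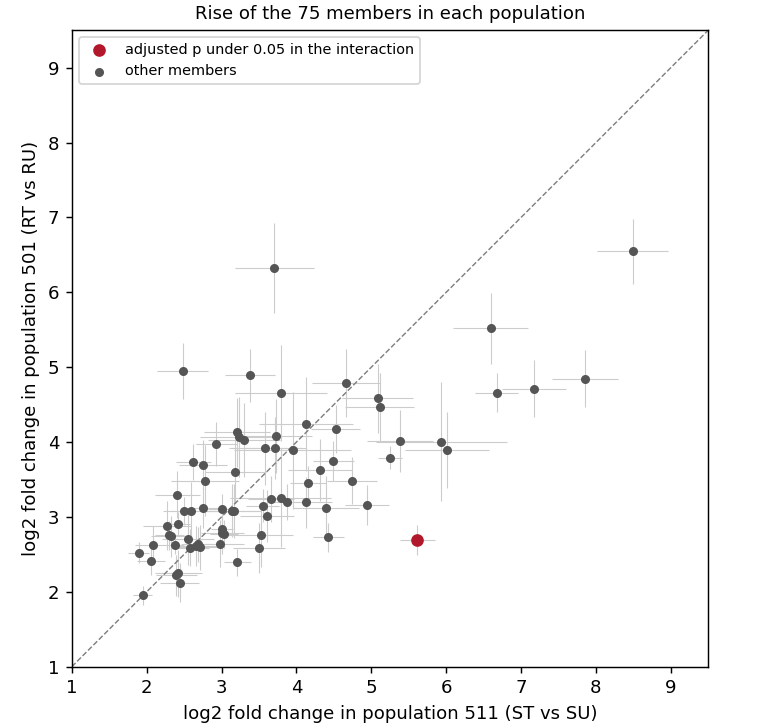
Log2 fold change of each member in population 511 (ST vs SU, horizontal) and in population 501 (RT vs RU, vertical), with standard errors from edgeR as bars and the line of equal rise dashed. All points lie at 1.89 or more on both axes because of how members were chosen, 42 lie below the line, and Ah.13g071330 (red) at 5.62 and 2.69 is the member called in the interaction.

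The largest interactions in the other direction belonged to Ah.09g228310 and Ah.11g039770. Ah.09g228310 had 2013, 1459 and 797 CPM in RT and 816, 894 and 416 CPM in ST, against 14.5, 19.1 and 19.8 CPM in RU and 36.1, 31.5 and 95.8 CPM in SU. Each SU plant was above each RU plant, and the treated groups overlapped. The interaction of 2.62 ± 0.68 did not pass (SE, edgeR adjusted p = 0.354). Ah.11g039770 had 1550.4, 1171 and 803 CPM in RT and 398, 444 and 753 CPM in ST, against 37.5, 35.97 and 40.9 CPM in RU and 83.1, 132 and 71.2 CPM in SU. RT was above ST and RU below SU in every plant, and the interaction of 2.47 ± 0.46 did not pass (SE, edgeR adjusted p = 0.129). Both passed with DESeq2, with adjusted p of 0.0105 and 5.47e-05.

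The members varied most among the treated plants of 511. The SD of log2 CPM between the 3 plants of a group had a median over members of 0.22 in RT, 0.45 in ST, 0.23 in RU and 0.30 in SU, where the medians over all gene models tested were 0.20, 0.39, 0.17 and 0.27. Plant ST S13 was the highest of its group in 39 members and the lowest in 26. Over the untreated mean of its own population, the median rise of the members was 9.63, 9.84 and 9.505 times in RT S11, S14 and S110, and 12.8, 8.96 and 8.53 times in ST S13, S16 and S112.

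The members that varied most among treated plants did so through ST S13. Ah.15g089960 had 55.3, 79.1 and 103 CPM in RT and 389, 78.3 and 62.5 CPM in ST, with 389 CPM in ST S13, against 11.02, 5.85 and 8.04 CPM in RU and 13.2, 9.32 and 15.96 CPM in SU. Ah.07g206540 had 177, 159.5 and 138 CPM in RT and 434, 75.9 and 62.6 CPM in ST, with 434 CPM in ST S13, against 20.1, 5.67 and 6.34 CPM in RU and 10.1, 11.6 and 15.5 CPM in SU. Their SD of log2 CPM over the 6 treated plants was 1.03 and 0.99.

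The steadiest were Ah.06g181220 and Ah.16g110040, with SDs of 0.14 each. Ah.06g181220 had 117, 117.6 and 135 CPM in RT and 147, 125 and 141 CPM in ST, against 28.4, 20.5 and 21.8 CPM in RU and 15.8, 17.3 and 11.7 CPM in SU. Ah.16g110040 had 1309, 1458 and 1136 CPM in RT and 1235, 1142 and 1351 CPM in ST, against 290.3, 229.7 and 214 CPM in RU and 300.3, 334 and 261 CPM in SU. In neither did RT and ST differ past the test (edgeR adjusted p = 0.697 and 0.895).

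The members carry identifiers from all 17 number blocks of the smooth pigweed annotation, Ah.00 to Ah.16, with 1.34 to 9.35 members per 1000 gene models tested in a block. Members at consecutive identifiers came in 2 pairs only. Ah.07g202330 and Ah.07g202340 moved alike in part. The first had 82.3, 43.3 and 55.7 CPM in RT, 40.4, 59.0 and 62.2 CPM in ST, 9.81, 10.2 and 10.2 CPM in RU and 10.1, 9.498 and 7.51 CPM in SU. The second had 52.7, 33.8 and 32.3 CPM in RT, 25.5, 31.5 and 30.4 CPM in ST, 5.81, 5.705 and 6.10 CPM in RU and 5.86, 6.51 and 5.39 CPM in SU. In both, RT S11 was the highest plant and ST S13 the lowest treated one. RT and ST overlapped in the first, while every RT plant was above every ST plant in the second. That contrast did not pass in the second (edgeR adjusted p = 0.381).

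The pair Ah.15g096730 and Ah.15g096740 differed in its untreated plants. Ah.15g096730 had 14.1, 17.2 and 11.9 CPM in RU, above all SU plants at 5.78, 7.37 and 3.37 CPM, and Ah.15g096740 had 15.1, 9.23 and 7.41 CPM in RU and 14.3, 30.4 and 17.1 CPM in SU, which overlapped. With MCPA, Ah.15g096730 had 139, 169 and 174 CPM in RT and 101, 189 and 151 CPM in ST, and Ah.15g096740 had 167, 317 and 315 CPM in RT and 522, 239 and 93.8 CPM in ST. ST S13 was thus the lowest treated plant for the first and the highest for the second. How reads shared by near-identical neighbours were counted is not given in the sources used here. Of 115 tested gene models next to a member by identifier and not members themselves, 11 (9.57%) were called higher with MCPA in both populations, where 2.48% of all gene models were.

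When the rule was applied to the 6 plants of 1 population, the other population took no part in that choice. The calls came from fits of all groups together, so the estimate of the spread was shared. The 6 plants of 501 chose 224 gene models, of which 148 (66.1%) were called higher in ST than in SU, against 3.45% of all. Of those that the 6 plants of 511 chose, 97 (86.6%) were called higher in RT than in RU, against 3.86% of all. Without ST S13 and SU S116 the shares called, members included, were 55.9% of 227, against 2.73% of all, and 78.5% of 181, against 4.32% of all.

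The second alignment, of the same reads to transcripts assembled de novo from long reads of 511 leaves, gave 152 transcripts that meet the rule, 0.410% of 37054 with any count. These are the same plants, and the transcripts are not matched to gene models here. Their mean rise had a median of 10.1 times. In RU vs SU, 19 of them passed the adjusted threshold, with no fold limit, as higher (12.5%, against 0.237% of 36678 transcripts tested) and 0 lower (0.134% of all). RU plants all lay above SU plants in 50 (32.9%, against 12.7% of all) and below them in 14 (9.21%, against 12.4% of all). At an unadjusted p under 0.05, 48 passed (31.6%, against 10.5% of all), and the median log2 ratio of RU over SU was 0.30. Transcripts of 1 gene share reads, so they are not independent members.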

How the data were processed

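Leaf mRNA of 12 single plants (RT, ST, RU and SU, 3 each, grouped by their labels) was analysed, and the pooled long-read library was not analysed here. The authors trimmed reads with fastp 0.23.4 and used STAR 2.7.4a with the genome of smooth pigweed, a related species. The deposited table holds raw, whole-number counts for each gene model. The counting tool, and how it treated strand and multi-mapped reads, is not given in the sources used here. For the de novo transcripts the authors used Bowtie 2 2.5.2, samtools 1.19 and featureCounts of Subread 2.0.6. The deposited counts repeat for every open reading frame of a transcript and were read once.

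Here, R 4.3.3 with edgeR 4.0.16 gave CPM after TMM on gene models with any count. Tests were edgeR's quasi-likelihood test after filterByExpr (minimum count 10, minimum total 15), with all 12 libraries in 1 robust fit, 1 mean per group, and Benjamini-Hochberg adjustment over the 16304 gene models tested. All 75 members passed this filter. DESeq2 1.42.0, unshrunken, was an alternative, as were other scalings, filters, rule limits and left-out plants. Intervals are 95% intervals from the fit. The code was tested on simulated counts.

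Members, gene lists and rules were chosen with earlier results of these data known. Named were the members with the highest and lowest ratios and those just outside the limits, the highest treated means, the members called in or nearest to a call in the tested contrasts, the most extreme interactions, runs of identifiers, and the largest and smallest treated SD.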

Additional observations from a re-analysis of the deposited data

Results flagged for a closer look

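With all 12 plants, Ah.13g071330 differed between the populations in its rise with MCPA. The interaction, the log2 fold change in RT vs RU minus that in ST vs SU, was -2.92 (edgeR adjusted p = 0.0084). All RU plants (35.8 to 43.8 CPM) lay above all SU plants (4.61 to 7.33 CPM), while RT (249 to 275 CPM) and ST (238 to 325 CPM) overlapped. The interaction call was lost without RT S11 (edgeR adjusted p = 0.0667) and without SU S12 (0.0583).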

How the results depend on the processing

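The count of 75 members moved with the rule's limits. It was 169 at 2 times, 46 at 4 times, 47 with an untreated minimum of 5 CPM, 152 as de novo transcripts, and 75 to 95 when 1 plant was left out. Without ST S13 and SU S116 it was 111, among them all 75 members. In RU vs SU the 4 calls with the fold limit became 1 to 4 without 1 plant, 1 without SU S12 and 2 without RU S118. In the interaction, the 1 call became 10 with DESeq2, 9 without ST S13 and SU S116, and 0 to 8 without 1 plant (8 without ST S13, 0 without RT S11 or SU S12). The 0 calls in RT vs ST with the fold limit stayed 0 in every alternative for which calls were counted, DESeq2 included. Calls were not counted with scaling by library totals alone. Scaling by library totals alone shifted the median of all gene models to -0.28 in RT vs ST, -0.16 in RU vs SU, 0.14 in RT vs RU, 0.28 in ST vs SU and -0.12 in the interaction, and the members' medians to -0.24, -0.044, 3.36, 3.63 and -0.20 in the same order. It also gave members' shares of counts of 4.37% in ST and 0.278% in RU. Without ST S13 and SU S116, the members' medians were 0.14 in RT vs ST, 3.03 in ST vs SU and 0.056 in the interaction. Without 1 plant, they were -0.10 to 0.14 in RT vs ST, 0.06 to 0.11 in RU vs SU, 3.173 to 3.31 in RT vs RU, 3.08 to 3.47 in ST vs SU and -0.24 to 0.0072 in the interaction. Without ST S13 and SU S116, an alternative chosen after seeing the data gave 18 members with RU below SU in every plant (18.7% of all gene models), 27 with RU above SU (17.8%), 18 with RT above ST (13.7%) and 6 with RT below ST (14.2%). The de novo test and the rule in 1 population were also chosen after seeing the data. The cause of these shifts was not tested. RLE scaling, other count filters and fits of 6 libraries moved none of the counts of calls by over 1.5 times. No paired analysis was possible because the groups compared share no plant number. With 3 plants a group, small differences between populations cannot be detected.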
